A study of Mus musculus with 2 samples.

Results

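The replication-dependent histone genes were taken as all protein-coding genes whose symbols begin with Hist1h, Hist2h, Hist3h or Hist4h. The rule gave 67 of the 21827 protein-coding genes of GENCODE vM21 on the mm10 build, and 3 pseudogenes with such symbols were left out. By type they were 13 genes of histone H4, 18 of H2A, 18 of H2B, 12 of H3 and 6 of the linker histone H1. The Hist1 cluster on chromosome 13 held 54 of them, in a block of 23 genes over 327 kb and a second block of 31 genes over 403 kb. The Hist2 cluster on chromosome 3 held 10 genes over 49.9 kb, Hist3 on chromosome 11 held 2 genes and Hist4 on chromosome 6 held 1 gene.

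The measurement was ChIP-seq (immunoprecipitation of chromatin and sequencing of its DNA) with an antibody against EP300, in lung tissue of the mouse strain B6NCrl at postnatal day 0. The data were 2 libraries of 1 group. They are numbered as biological replicates 1 and 2, but their donor and biosample are the same record, so that their spread may be only technical. The sex was not collected. A possible control experiment named in the labels was not analysed here. The main peak list was the optimal set of 43988 reproducible peaks made by the authors, of which 43972 lay on the 21 chromosomes used. Whole lung mixes many cell types, so more EP300 per cell and more cells with EP300 cannot be told apart. Of the lung genes checked, Sftpc and Sftpb (surfactant of alveolar type 2 cells), Ager (alveolar type 1 cells), Nkx2-1 (lung epithelium) and Pecam1 (endothelium) had promoter peaks with signals of 119, 149, 158, 62.2 and 92.3. Kdr, also an endothelial gene, had no promoter peak but 15 peaks assigned to it within 100 kb. Alb (liver), Myh6 (heart) and Neurod1 (neuroendocrine cells and neurons) had no promoter peak either, with 0, 0 and 4 assigned peaks.

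Replication-dependent histone genes are transcribed mainly in S phase, when new DNA has to be packed into nucleosomes. Their mRNAs end in a stem-loop in place of a poly(A) tail, and they are transcribed and processed in nuclear histone locus bodies organised by NPAT. H2A, H2B, H3 and H4 form the core of the nucleosome, and H1 binds the linker DNA between nucleosomes. The promoters of each type carry sequence elements of their own: an element around GGTCCG in H4 genes, boxes of CCAAT in H2A and H2B genes together with an octamer, ATTTGCAT, and the H1 box, AAACACA, in H1 genes. EP300 is a lysine acetyltransferase that acetylates histones and is brought to active promoters and enhancers by DNA-bound factors. Many H2A and H2B genes are transcribed away from a shared stretch of promoter DNA.

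The H4 genes had the highest median promoter signal of the histone types, and their promoters are shown first, as 60 bases of the GRCm38.p6 genome (the same assembly as mm10) on the strand of the gene, aligned on GGTCCG. Capitals mark GGTCCG. The stretch for Hist1h4h ends at its annotated start site. The order is that of the promoter peak signal, and the last 2 genes had no peak. The sequence at those 2 genes is nearly repeated elsewhere (uniqueness of 4.21% and 4.26%, described below). The part of this in their missing peaks was not tested.
Hist1h4c (chr13:23698475-23698534, minus strand): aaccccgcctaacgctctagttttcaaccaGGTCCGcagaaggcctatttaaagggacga
Hist1h4d (chr13:23581491-23581550, plus strand): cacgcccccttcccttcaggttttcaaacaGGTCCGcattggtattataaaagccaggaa
Hist2h4 (chr3:96263350-96263409, minus strand): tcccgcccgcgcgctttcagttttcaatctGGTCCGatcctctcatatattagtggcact
Hist1h4f (chr13:23551685-23551744, minus strand): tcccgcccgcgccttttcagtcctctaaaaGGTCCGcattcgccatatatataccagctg
Hist4h4 (chr6:136804434-136804493, minus strand): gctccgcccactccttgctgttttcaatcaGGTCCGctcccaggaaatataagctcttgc
Hist1h4i (chr13:22041379-22041438, minus strand): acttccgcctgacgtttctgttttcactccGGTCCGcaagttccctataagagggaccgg
Hist1h4b (chr13:23756913-23756972, plus strand): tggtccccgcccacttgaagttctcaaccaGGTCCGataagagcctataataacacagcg
Hist1h4h (chr13:23531009-23531049, plus strand): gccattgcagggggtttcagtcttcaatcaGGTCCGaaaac
Hist1h4k (chr13:21750556-21750615, minus strand): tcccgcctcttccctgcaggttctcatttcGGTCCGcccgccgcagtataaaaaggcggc
Hist1h4j (chr13:21734986-21735045, plus strand): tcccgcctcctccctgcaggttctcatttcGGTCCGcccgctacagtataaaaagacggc
Hist1h4m (chr13:21811669-21811728, plus strand): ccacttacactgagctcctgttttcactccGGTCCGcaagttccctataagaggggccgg
Hist1h4n (chr13:21832214-21832273, minus strand): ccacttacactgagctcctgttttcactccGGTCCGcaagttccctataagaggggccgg

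GGTCCG, searched on both strands from 250 bases before to 50 bases after the start site, was found in 12 of the 13 H4 promoters (92.3%), all but Hist1h4a. It was found in 0 of 18 H2A, 1 of 18 H2B, 2 of 12 H3 and 0 of 6 H1 promoters, and in 9.56% of all 21827 promoters. In the 12 aligned stretches the bases shared by all up to the end of the element spelled GTNNTCNNNNNGGTCCG. The string was read from these promoters, so its presence in the 12 is no finding. It was found in 13 of the 21814 promoters that are not those of H4 genes, none of them another histone gene. A string with 10 fixed bases is rare in any sequence, so this count does not measure how particular it is to H4 genes. The 60 bases of Hist1h4m and Hist1h4n were the same.

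The divergent H2A and H2B genes share 1 promoter stretch. Below, the bases between the start sites of 4 such pairs are given on the plus strand, with CCAAT and the octamer ATTTGCAT in capitals on either strand (ATTGG and ATGCAAAT on the other). The leading 3 pairs had an EP300 peak between the start sites and the last had none. The sequence around the start sites of the last pair is repeated elsewhere (uniqueness of 0, described below). The part of this in its missing peak was not tested.
Hist1h2bf to Hist1h2ad (chr13:23574197-23574380, plus strand): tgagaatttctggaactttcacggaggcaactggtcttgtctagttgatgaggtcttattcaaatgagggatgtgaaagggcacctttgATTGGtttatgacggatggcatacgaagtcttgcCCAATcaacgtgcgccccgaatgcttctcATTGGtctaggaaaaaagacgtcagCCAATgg
Hist1h2ac to Hist1h2bc (chr13:23683949-23684198, plus strand): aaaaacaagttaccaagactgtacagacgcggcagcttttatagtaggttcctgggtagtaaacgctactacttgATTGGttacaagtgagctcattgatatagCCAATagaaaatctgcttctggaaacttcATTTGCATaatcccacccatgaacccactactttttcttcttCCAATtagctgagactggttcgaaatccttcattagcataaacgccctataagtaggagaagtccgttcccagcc
Hist1h2ae to Hist1h2bg (chr13:23571221-23571395, plus strand): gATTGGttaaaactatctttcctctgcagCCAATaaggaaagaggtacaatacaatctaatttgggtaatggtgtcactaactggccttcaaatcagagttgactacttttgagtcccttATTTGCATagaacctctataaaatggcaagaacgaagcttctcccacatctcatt
Hist1h2ap to Hist1h2br (chr13:21833508-21833742, plus strand): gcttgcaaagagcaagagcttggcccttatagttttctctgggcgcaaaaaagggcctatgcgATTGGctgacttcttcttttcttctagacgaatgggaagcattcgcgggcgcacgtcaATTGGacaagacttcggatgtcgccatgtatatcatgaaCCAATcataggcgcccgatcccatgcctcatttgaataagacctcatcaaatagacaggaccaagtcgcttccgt

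CCAAT was found in all 18 H2A and all 18 H2B promoters, in 11 of 12 H3 and 5 of 6 H1 promoters and in 4 of 13 H4 promoters, against 39.0% of all promoters. The octamer was found in 7 H2A promoters (38.9%) and 8 H2B promoters (44.4%), in 0 of the other types, and in 1.57% of all promoters. A site in a stretch shared by a divergent pair can count for both genes, so these are not all separate sites. For an H3 gene with a peak and an H1 gene without an optimal peak, the 150 bases before the start site are given, with CCAAT and AAACACA in capitals.
Hist2h3b (chr3:96268504-96268653, plus strand): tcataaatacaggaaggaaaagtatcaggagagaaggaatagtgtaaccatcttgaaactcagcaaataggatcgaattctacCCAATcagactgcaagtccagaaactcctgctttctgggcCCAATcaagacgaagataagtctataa
Hist1h1c (chr13:23738658-23738807, plus strand): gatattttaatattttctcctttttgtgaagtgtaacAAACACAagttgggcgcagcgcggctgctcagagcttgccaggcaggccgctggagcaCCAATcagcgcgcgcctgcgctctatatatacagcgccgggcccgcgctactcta

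The H1 box AAACACA was found in 4 of 6 H1 promoters (66.7%), against 6.40% of all promoters. TATAAA was found in 37 of the 67 promoters (55.2%), against 12.7% of all. CCAAT did not separate members with a promoter peak (30 of 37, 81.1%) from those without (26 of 30, 86.7%). These matches are descriptions of the letters in the windows.

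EP300 lay at the promoters of most replication-dependent histone genes, and the share of genes with a peak differed between histone types. A promoter peak was an optimal peak with its summit within 1 kb of a start site. It was found at 37 of 67 members (55.2%), against 4477 of all 21827 protein-coding genes (20.5%). By type, 11 of 13 H4 genes (84.6%), 12 of 18 H2A genes (66.7%), 10 of 18 H2B genes (55.6%), 3 of 12 H3 genes (25.0%) and 1 of 6 H1 genes (16.7%) had a promoter peak. In this set the shares of H3 and H1 genes were near that of all genes, and those of H4, H2A and H2B genes above it. In other sets they were not: H1 genes with a peak were 3 of 6 in the conservative set and in replicate 1 alone, where 19.8% and 23.0% of all genes had one. H3 genes with a peak were 5 of 12 in replicate 2 alone, against 21.6% of all genes. Member genes lie side by side and share peaks, so no test was made over them.

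**Figure D1:**
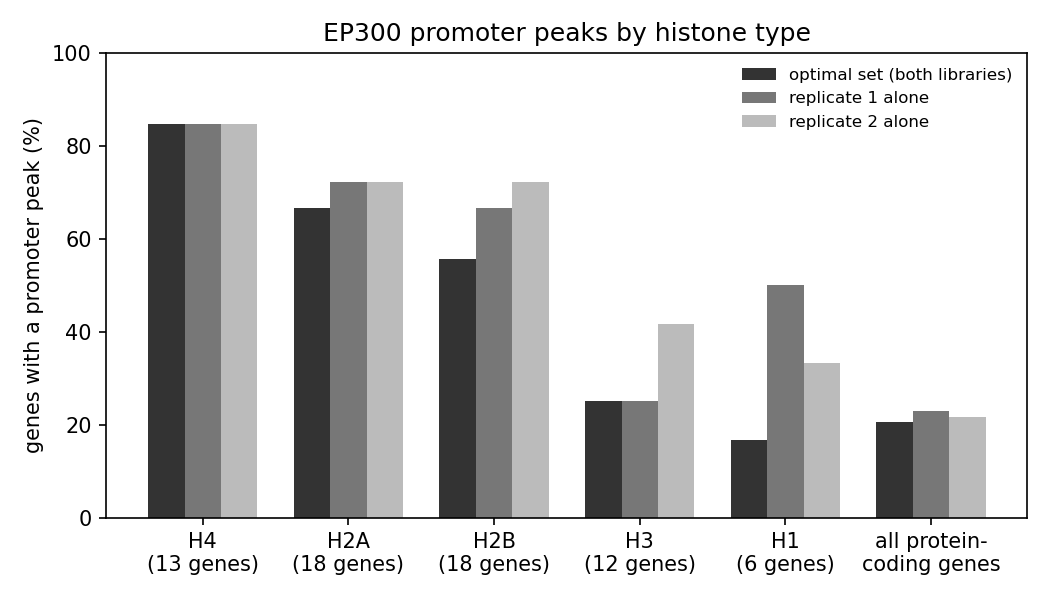
Percent of genes with an EP300 promoter peak for each histone type and for all protein-coding genes. The 3 bars are the optimal set and the strongest 43988 peaks of replicate 1 alone and of replicate 2 alone. H4 stands at 84.6% in each list, and all protein-coding genes stand at 20.5%, 23.0% and 21.6%.

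The clusters differed less than the types. In Hist1, 29 of 54 genes (53.7%) had a promoter peak, with 12 of 23 (52.2%) in the first block and 17 of 31 (54.8%) in the second. In Hist2 it was 6 of 10 (60.0%), in Hist3 1 of 2, and the gene of Hist4 had a peak. The 8 promoter peaks of the first block had a median signal of 42.7 and the 21 of the second 57.8, with ranges of 29.0 to 102 and 11.8 to 224 that overlap. In the first block the H4 genes with a peak were 3 of 5, and in the second 6 of 6. The first-block H4 genes without a peak were Hist1h4m and Hist1h4n, whose sequence is nearly repeated elsewhere (uniqueness of 4.21% and 4.26%, described below). Hist1h2bq, Hist1h2ao, Hist1h2ap and Hist1h2br of that block, also without a peak, had a uniqueness of 0. The part of this in the shares of the blocks was not tested.

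In the lists of single libraries H4, H2A and H2B genes again had larger shares than H3 and H1 genes, whose own order differed between the libraries. Among the strongest 43988 peaks of each library, promoter peaks were found for 42 members in replicate 1 and 44 in replicate 2. H4 genes numbered 11 in both, H2A genes 13 in both, and H2B genes 12 and 13. The H3 genes numbered 3 in replicate 1 and 5 in replicate 2, and the H1 genes 3 and 2. In the optimal set and in both libraries the same 35 members had a peak, and 21 members had none in any of the 3 lists. A further 5, Hist1h1c, Hist1h2ah, Hist1h2bk, Hist1h3e and Hist2h2bb, had a peak in both libraries but not in the optimal set.

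The 37 members shared 38 promoter peaks, with a median signal of 54.6 and a range of 11.8 to 224, against a median of 44.8 over all 5418 promoter peaks. Signal is the value the authors deposited for each peak in the pooled list, with no scaling stated. The H4 genes had 13 of these peaks, with a median of 91.3. The medians were 53.3 for the 16 peaks of H2A genes, 54.4 for the 14 of H2B genes, 27.7 for the 4 of H3 genes and 35.8 for the 4 of H1 genes. All 4 peaks of H1 genes were those of 1 gene, Hist1h1e, and some of them were shared with the H2B gene Hist1h2be. Taking the strongest peak of each gene, 6 of the 11 H4 genes stood above the 90th percentile of all promoter peaks, as did 2 of 12 H2A and 3 of 10 H2B genes, and none of the H3 and H1 genes. The 2 H2A genes, Hist1h2ad and Hist1h2ac, share these peaks with the H2B genes Hist1h2bf and Hist1h2bc. The percentiles set the strongest peak of a gene against all promoter peaks, weaker ones of the same genes included, which raises them. By strongest peak the median was 62.8 for members with a peak and 51.0 for all genes with a peak.

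Hist1h4c, an H4 gene of the second Hist1 block, had the strongest promoter peak, with a signal of 224 (rank 747 of 43988). The peak lay at chr13:23698287-23698710, over the start of the gene (chr13:23697635-23698454, minus strand), with its summit 45 bp before the start site. Its signal was 119 in the list of replicate 1 and 105 in that of replicate 2, so it ranked 908 and 632 in them. It was the highest member in both libraries.

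Hist1h4d, in the same block, followed with a signal of 171 (111 in replicate 1 and 55.8 in replicate 2). Its peak lay at chr13:23581306-23581729, with the summit 80 bp before the start site. The libraries differed more for this peak than for Hist1h4c. Hist2h4, the H4 gene of the Hist2 cluster, had a signal of 144 (84.8 and 58.6) at chr3:96263219-96263642. Hist4h4, the lone gene of Hist4, had 108 (73.5 and 43.8) at chr6:136804303-136804726. An H4 gene was therefore the strongest in Hist1, Hist2 and Hist4.

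The other H4 peaks were weaker and spread over a wide range. Hist1h4f had a signal of 108 (46.7 and 62.0), and Hist1h4i, the strongest of the first block, had 102 (59.1 and 42.6). Hist1h4b had 91.3, Hist1h4h 88.8, Hist1h4a 55.6, Hist1h4k 50.2 and Hist1h4j 41.3. Hist1h4a, without GGTCCG, differed most between the libraries among the H4 genes, with 38.6 in replicate 1 and 15.0 in replicate 2.

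H4 summits kept close to the start site. The strongest summit of each of the 11 genes lay 20 to 125 bp before it (median -90.0 bp). GGTCCG stood within 50 bp of the summit in 8 of these 11 peaks and within 100 bp in 10, and the median distance was 25.0 bp over the peaks with a match within 150 bp. In the 101 bp around the summit, 8 of 11 H4 peaks (72.7%) held GGTCCG, against 207 of all 5418 promoter peaks (3.82%). The summits of the 2 libraries were 15.0 bp apart in the median at these genes, so a distance of this size is near the precision of the summit. GGTCCG was in 92.3% of H4 promoters and 9.56% of all promoters. The shares around the summit therefore do not separate closeness to EP300 from the presence of the word.

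**Figure D2:**
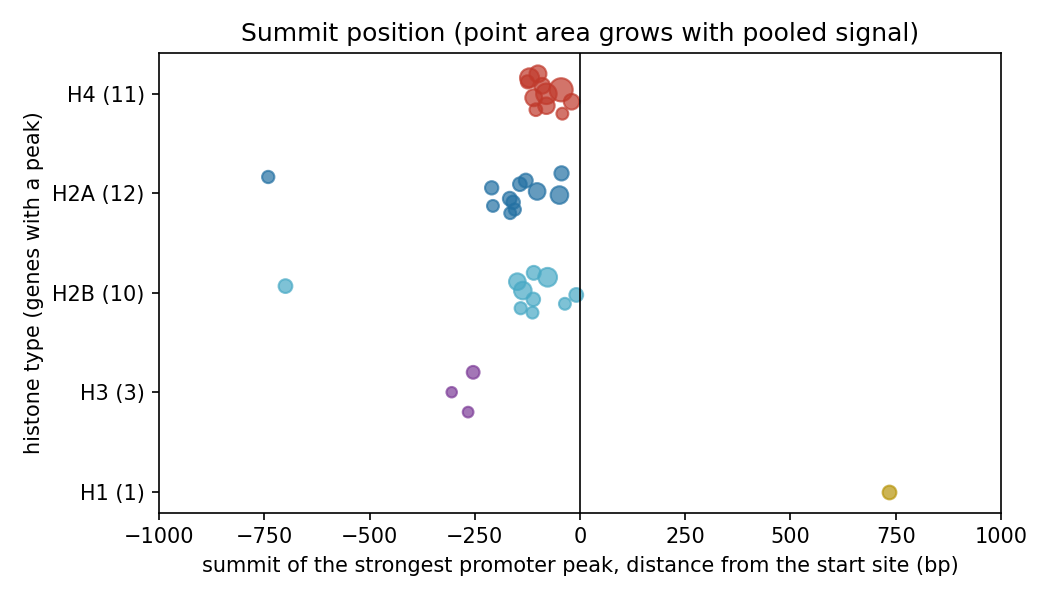
Distance in bp of the summit of the strongest promoter peak from the start site of each member with a peak, by histone type. Negative values are before the start site, and the area of a point grows with the pooled signal. The 11 H4 summits lie between -125 and -20 bp, and the 3 H3 summits between -305 and -254 bp.

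Among H2A and H2B genes, which form the dimers of the nucleosome core, the strongest peak was that of Hist1h2bb (chr13:23746445-23746868), with a signal of 138 (66.6 in replicate 1 and 70.8 in replicate 2). Hist1h2ad and Hist1h2bf shared a peak of 119 (55.5 and 62.8) at chr13:23574120-23574543, and its summit lay at -49 bp from the start of Hist1h2ad and at -136 bp from that of Hist1h2bf. Hist1h2ac and Hist1h2bc shared a peak of 104 (59.5 and 42.5) at chr13:23683838-23684261. In the first block Hist1h2ag and Hist1h2bj shared a peak of 60.0 (27.6 and 33.7), and Hist2h2ac and Hist2h2be in Hist2 shared 1 of 65.4. Hist2h2ab in the same cluster had 62.3 (35.3 and 21.8), a peak that also lay at the promoter of Bola1, a gene outside the members.

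Start sites on opposite strands within 1 kb of each other formed 13 pairs of members, 12 of an H2A and an H2B gene and 1 of an H2B and an H3 gene, with 176 to 660 bp between the starts (median 268). Of these pairs 8 (61.5%) shared a promoter peak, and in all 8 a shared summit lay between the start sites. Among the 981 other divergent protein-coding pairs, 370 (37.7%) shared a peak. The pairs without were Hist1h2ba and Hist1h2aa, Hist1h2ah and Hist1h2bk, Hist1h2bq and Hist1h2ao, Hist1h2ap and Hist1h2br, and Hist1h2bh and Hist1h3f. H2A genes had a peak in 8 of 12 cases inside the pairs (66.7%) and in 4 of 6 outside them (66.7%), and H2B genes in 8 of 13 inside (61.5%) and in 2 of 5 outside (40.0%).

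CCAAT lay near the summits at these genes. The strongest peaks of the H2A and H2B genes were 14 distinct peaks, and 10 of them (71.4%) held CCAAT in the 101 bp around the summit, against 819 of all 5418 promoter peaks (15.1%). Where a CCAAT lay within 150 bp of the summit, the median distance of the nearest was 15.0 bp for H2A genes and 14.0 bp for H2B genes. Most of these H2B genes share their peak with an H2A gene, so the 2 medians are not separate measurements. The octamer was in the same window of 4 of the 14 peaks (28.6%), against 0.461% of all promoter peaks. The 11 H4 peaks held CCAAT there in 1 case. All H2A and H2B promoters held CCAAT, and 38.9% and 44.4% held the octamer, against 39.0% and 1.57% of all promoters. The shares around the summit therefore do not separate closeness to EP300 from the presence of the words in H2A and H2B promoters.

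H3 genes had fewer and weaker optimal peaks than H4, H2A and H2B genes. Hist2h3b had a signal of 51.8 (27.2 in replicate 1 and 25.4 in replicate 2), Hist1h3h 29.0 and Hist1h3b 26.4. The peaks of Hist1h3h and Hist1h3b also lay within 1 kb of an H2A gene, Hist1h2ai and Hist1h2ab. In the pooled list of 300000 peaks, 10 of 12 H3 genes (83.3%) had some promoter peak, with a median signal of 27.6 and a range of 15.0 to 51.8. Over all protein-coding genes 54.0% had 1 in that list, with a median of 24.6, so H3 genes were not below all genes there. The count of H3 genes was 5 in replicate 2 alone and 3 in replicate 1 alone. With a window of 2 kb it rose to 7.

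Of the H1 genes, only Hist1h1e had a promoter peak in the optimal set. Its strongest, with a signal of 62.8 (25.4 in replicate 1 and 41.9 in replicate 2), had its summit 734 bp after the start site, and another, of 36.3, lay 125 bp before it. Hist1h1c, a replication-dependent H1 gene, had a peak of 56.0 in the pooled list (33.0 and 25.6 in the libraries) that was in the conservative set but not in the optimal set. The call therefore left out a peak stronger than the median member peak. The count of H1 genes was 1 in the optimal set, 3 in the conservative set, 3 in replicate 1 alone and 2 in replicate 2 alone. Hist1h1t, the testis H1 gene, had no promoter peak in the pooled list.

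**Figure D3:**
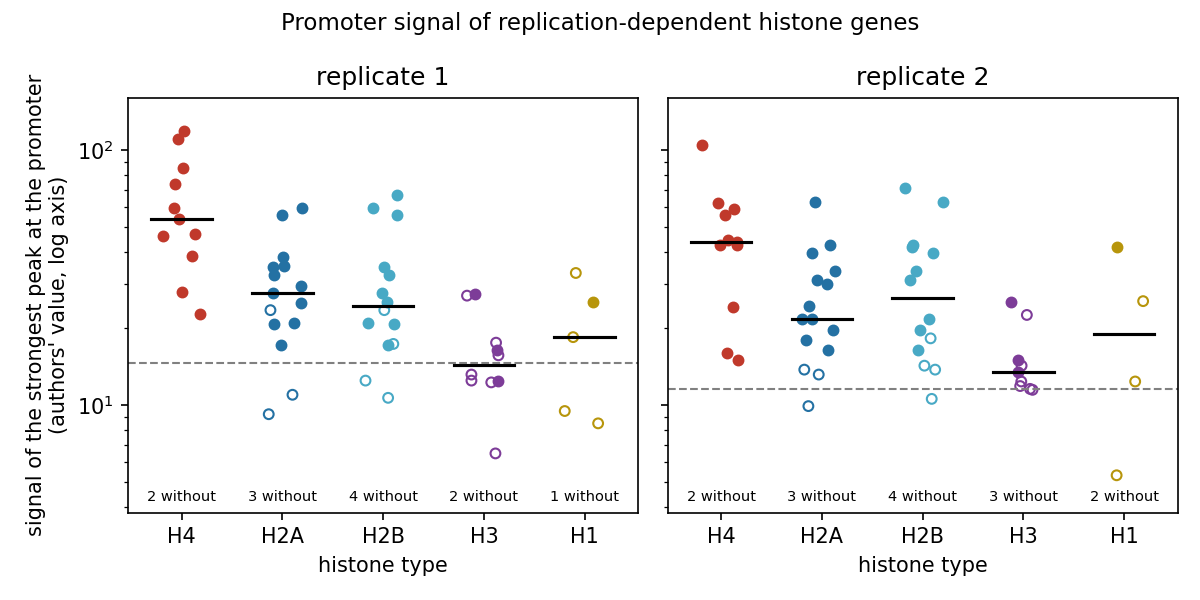
Signal of the strongest promoter peak of each member in the full list of each library, on a log axis, by histone type. Filled points have an optimal promoter peak, open points do not, bars are medians over genes with a peak listed, and the dashed line is the median over all protein-coding genes with a promoter peak in that list. H4 has the highest median in both libraries, 53.9 in replicate 1 and 43.8 in replicate 2.

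The order of types by promoter signal was much the same in the libraries. In the full lists of 300000 peaks, the medians over genes with a peak were 53.9 for H4, 27.6 for H2A, 24.5 for H2B, 18.5 for H1 and 14.4 for H3 in replicate 1. They were 43.8 for H4, 21.8 for H2A, 26.4 for H2B, 19.0 for H1 and 13.5 for H3 in replicate 2. H2A and H2B changed places, and the median over all protein-coding genes with a peak was 14.6 and 11.6. The H1 medians rest on 5 genes in replicate 1 and 4 in replicate 2. In the pooled list H1 and H3 stood the other way, with medians of 19.3 for H1 and 27.6 for H3. The ranges of the types overlapped: the lowest H4 gene had 22.8 and 15.0, below the highest H2A gene with 59.5 and 62.8.

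The libraries were close for single peaks of the optimal set. That set was chosen by the authors for reproducibility, and the fold comparison below uses only peaks found in both libraries. The closeness is therefore partly fixed by the selection. Of the 38 member promoter peaks, 34 had a summit within 100 bp in the list of replicate 1, 32 in that of replicate 2 and 30 in both. After removing the median difference over all shared optimal peaks (0.40 on the log2 scale, replicate 1 over replicate 2), 93.3% of the 30 were within 2-fold, against 89.3% of all shared optimal peaks. The conservative set held 34 of the 38.

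At 12 members the pooled list of 300000 peaks showed no promoter peak at all. Some pooled-list peak was found at 55 of 67 members (82.1%), against 54.0% of all protein-coding genes. Of the 12, 6 lie together in the first Hist1 block: Hist1h2bq, Hist1h2ao, Hist1h4m, Hist1h4n, Hist1h2ap and Hist1h2br. Another 2 are the H3 genes Hist2h3c1 and Hist2h3c2. The remaining 4 are Hist1h1t, the testis genes Hist1h2ba and Hist1h2aa, and Hist3h2ba.

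The genome sequence at 8 of these 12 is nearly repeated elsewhere. Sequence uniqueness was taken as the percent of 32-base words within 1 kb of the start site that occur once on the 21 chromosomes, since a read that matches several places cannot be assigned to 1 of them by its sequence. Over the 67 members its median was 75.5%. It was 0 at Hist1h2bq, Hist1h2ao, Hist1h2ap and Hist1h2br, 4.21% at Hist1h4m and 4.26% at Hist1h4n. At Hist2h3c1 and Hist2h3c2 it was 19.4% and 20.4%. Hist1h4m and Hist1h4n shared 80.1% of their words with each other. The other 4 genes without a peak were unique for the most part, with 100% at Hist1h1t, 89.3% at Hist1h2ba and Hist1h2aa and 88.7% at Hist3h2ba.

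Under 50% uniqueness there were 10 members, of which 1 had a promoter peak: Hist2h2aa1 with 43.4% and a signal of 45.5, its summit 741 bp before the start site. At 50% or more there were 57 members, and 36 of them (63.2%) had a promoter peak. By type this was 11 of 11 H4 genes, 11 of 14 H2A, 10 of 16 H2B, 3 of 10 H3 and 1 of 6 H1 genes. The order of types was thus the same among members with mostly unique sequence, and both H4 genes without a peak were nearly repeated. H1 genes had the most unique promoters, with a median of 99.0%, and the lowest share of peaks. The read length and the handling of reads with several places are not given in the sources used here, so the part of repeated sequence in the missing peaks was not tested.

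**Figure D4:**
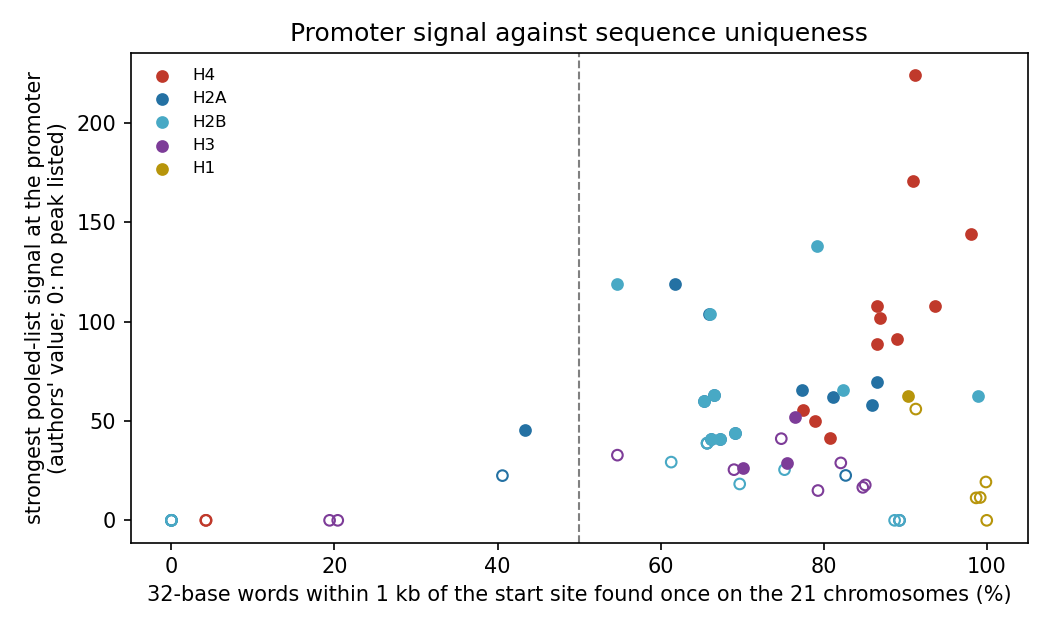
Strongest promoter signal of each member in the pooled list against the percent of 32-base words within 1 kb of its start site found once on the 21 chromosomes. Filled points have an optimal promoter peak, open points do not, a signal of 0 means no peak listed, and the dashed line marks 50%. Of 10 members left of the line, 1 is filled, and of 57 to the right, 36 are.

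EP300 peaks of the clusters lay at promoters more often than away from them. Assigning each optimal peak to the nearest protein-coding start site within 100 kb gave the members 54 peaks, a mean of 0.806 ± 1.00 per gene (SD over 67 genes), against 1.65 ± 3.22 over all protein-coding genes. At least 1 assigned peak was found for 36 members (53.7%), against 47.1% of all genes, a share not far from it. A peak shared by neighbouring genes goes to only 1 of them here. Members such as Hist1h2ag and Hist1h2ae therefore had a promoter peak but 0 assigned peaks, which lowers the mean and the share of members. Of the 54 peaks 37 (68.5%) lay within 1 kb, against 15.1% of the 35983 peaks assigned to any gene. The median distance was 0.260 kb against 16.6 kb, and no peak assigned to a member was further than 17.6 kb away. The 31 member start sites of the second Hist1 block lie within 403 kb, and such spacing bounds the distance of an assigned peak.

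**Figure D5:**
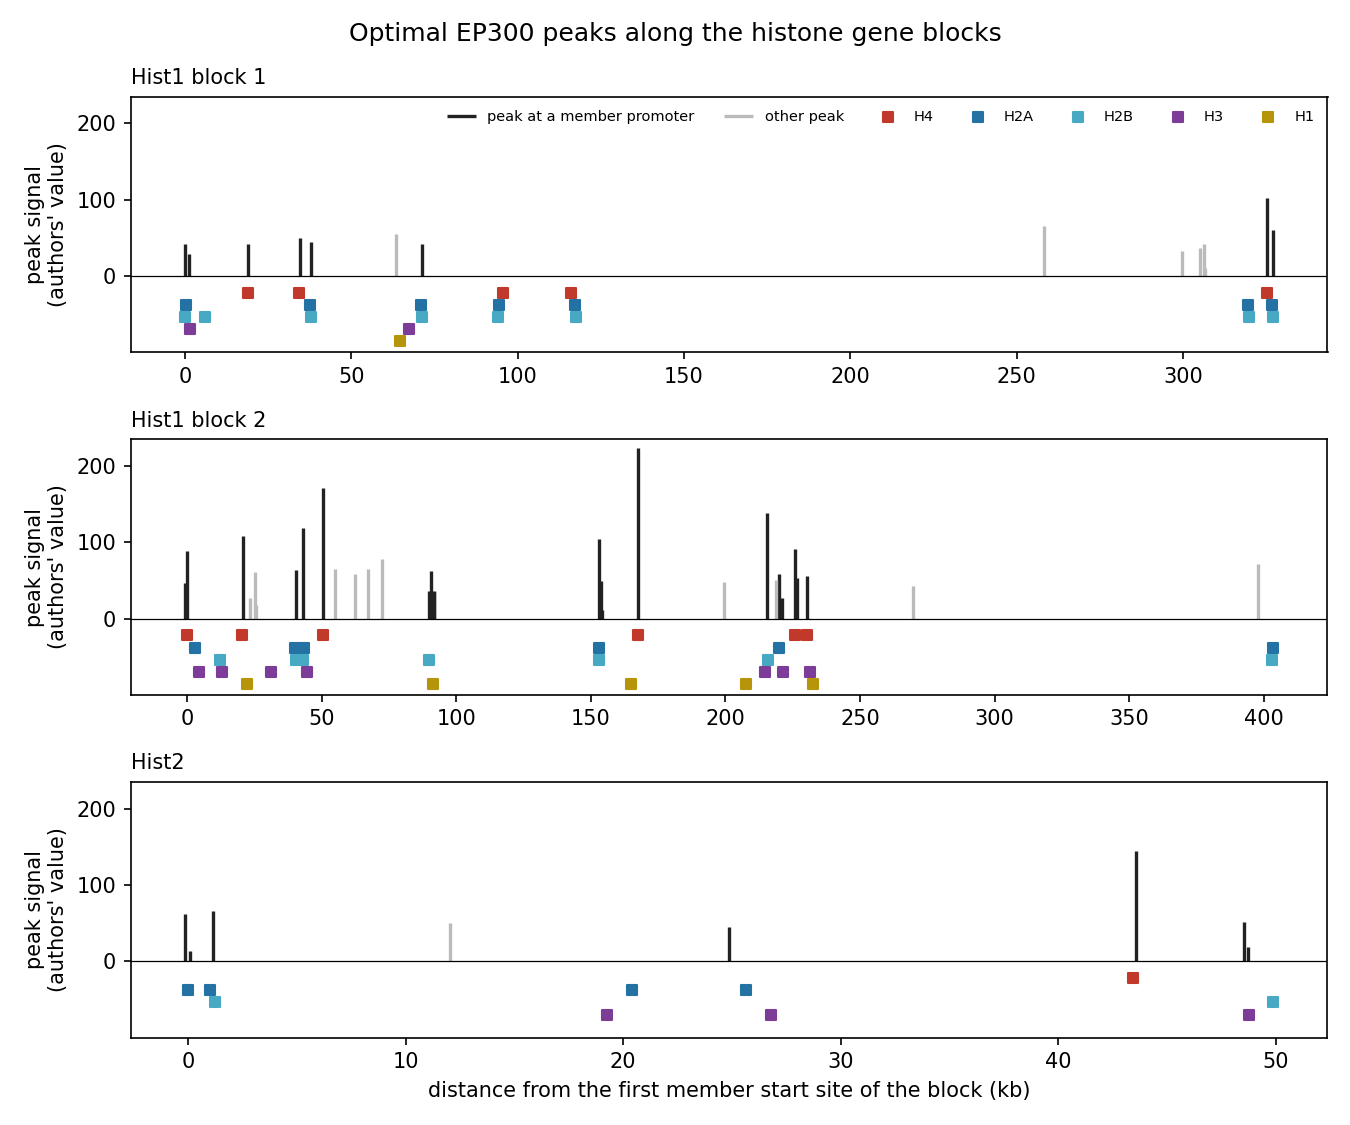
Optimal peaks along the 2 blocks of Hist1 and along Hist2, with the peak signal against the distance in kb from the first member start site of the block. Dark lines are peaks at member promoters, grey lines are other peaks, and squares below the axis are member start sites by histone type. The highest line, with a signal of 224, is that of Hist1h4c in the second block.

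Within 1 kb of the blocks lay 56 optimal peaks, of which 38 were at member promoters and 18 elsewhere. Of the 10 other protein-coding genes between members only Trim17 had a promoter peak, the peak of 69.6 (38.2 in replicate 1 and 29.8 in replicate 2) that it shares with Hist3h2a. The sodium phosphate transporter genes Slc17a1, Slc17a2, Slc17a3 and Slc17a4, the iron regulator gene Hfe, and Trim38, Zfp184, Pom121l2 and Prss16 had none. The strongest peak away from a promoter was 77.9 (42.3 and 34.8), inside the annotated gene Hist1h2be and 17.6 kb after its start site. Another of 71.3 (48.7 and 22.1) lay 5.26 kb from Hist1h2ba, whose own promoter had no peak.

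The annotated start site changed what was counted for some members. The GENCODE start of Hist1h2be lies 35138 bp from its start codon, beside Hist1h1e, and the peaks counted for it above are those it shares with Hist1h1e or that lie next to them. At its start codon another optimal peak, of 65.0 (33.3 in replicate 1 and 33.6 in replicate 2), had its summit 59 bp upstream (chr13:23585803-23586226). By the nearest start site that peak had gone to Hist1h4d, at 4.42 kb. The GENCODE start of Hist1h1d lies 1828 bp from its start codon. At the RefSeq start, 1770 bp nearer to the codon, an optimal peak of 27.0 lay within 1 kb, and H1 genes with a peak were then 2 of 6. Counted from the start codons of all members, Hist1h1d and Hist1h3a gained a promoter peak and none lost one, so that H3 genes with a peak were 4 of 12. The codon of Hist1h3a lies 33 bp from its GENCODE start, and the peak it gained is that of Hist1h4a, whose summit then came just within 1 kb.

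Other genes linked to histones and replication had promoter peaks in smaller shares than the members. The share over all protein-coding genes was 20.5%. Of 15 genes listed as replication-independent histone genes, 4 (26.7%) had a promoter peak, the strongest at H3f3b (85.7) and H2afj (83.0). Most such genes are not limited to S phase and have polyadenylated mRNAs. Of 30 factors of histone gene transcription and mRNA processing, 9 (30.0%) had 1, led by Srrt (144) and Casp8ap2 (95.6). Of 25 histone chaperones 7 (28.0%) had 1, led by Rbbp4 (98.2) and Mms22l (83.8). Of 53 cell cycle and DNA replication genes 18 (34.0%) had 1, led by Top2a (138) and Cdc45 (126). Of 30 ribosomal protein genes, a set of genes active in most cells, 22 (73.3%) had 1, led by Rpl32 (325) and Rpl4 (265). The proliferation marker Mki67 had no promoter peak. The share of 55.2% for replication-dependent genes thus lay between those of the ribosomal protein genes and the cell cycle genes.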

How the data were processed

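EP300 ChIP-seq peak lists of 2 libraries of newborn lung were used. The authors' deposited notes describe alignment to mm10, peak lists of 300000 for each library and for the pool of both, and optimal (43988) and conservative (42473) sets chosen from them by the irreproducible discovery rate. The aligner and the peak caller are not given in the sources used here. Each peak has a signal value deposited by the authors without a stated scaling, and these values were compared only inside a list or between shared peaks. The lists give no read counts, so depth is unknown and no counting interval can be given.

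Members and gene lists were chosen with earlier results of these data known, so all shares are descriptions beside those of all genes, with no test. Start sites were those of the GENCODE vM21 basic set. Peaks were linked to starts by summit, within 1 kb (promoter) or to the nearest start within 100 kb. Blocks were split at gaps of 500 kb between members. A single library was represented by its strongest 43988 peaks. Sequences were read by coordinates from the RefSeq GRCm38.p6 genome, and members were matched to RefSeq genes by older symbols (67 of 67). In 13 members the annotated start is the start codon. Named genes were those with the 3 strongest promoter peaks of each block, the strongest of each type and list, members with no peak and genes inside the blocks. Hist1h2be, Hist1h1d and Hist1h3a were singled out for their start sites after the values were seen. Bola1 was named because it shares a peak with a named member. The code was tested on simulated data. Python 3.11.15, numpy 2.4.6, pandas 2.3.3 and matplotlib 3.10.9 were used.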

Additional observations from a re-analysis of the deposited data

How the results depend on the processing

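In each alternative run for the counts by histone type, H4 genes had the largest share with a promoter peak and H2A and H2B genes larger shares than H3 and H1 genes, and the counts for H4, H2A and H2B stayed within 1.5 times the main count. In all, 146 of 171 alternative values were near the main value (counts within 1.5 times, the median signal within 0.990, the SD between the libraries, and the share of unique words within its SD over members) and 25 moved, among them 7 median signals within 1.5 times of the main value. RefSeq starts, start codons, the full annotation and leaving out members of under 50% unique words were chosen after seeing the data.

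The single libraries gave 42 to 44 members with a promoter peak, 2 to 3 H1 genes, 3 to 5 H3 genes and a median signal of 24.6 to 27.7. H1 genes with a peak were 3 in the conservative set, 3 with a window of 2 kb, and 2 with any overlap, with RefSeq starts and with start codons. H3 genes were 1 in the stronger 50% of peaks, 7 with a window of 2 kb and 5 with any overlap, so the order of H1 and H3 depends on the setting. The median signal of 54.6 was 52.7 in the conservative set, 69.6 in the stronger 50%, 60.0 with overlapping peaks merged, 58.9 with a window of 500 bp, 53.6 with 2 kb, 53.6 with RefSeq starts and 55.6 with start codons. Assigned peaks were 31 in the stronger 50% and 87 when every member within 100 kb counted, which then held for all 67 members. In 200 bases before the start, E2F words were in 6 members and TGTTCT in 7, against 12 and 11 in the main window. No paired analysis was possible because the 2 libraries form 1 group. Depth is unknown, and 2 libraries limit the precision of each signal.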

Other observations

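Other sequence words gave a mixed picture. E2F words (TTTGGCGC, TTTCCCGC, TTTCGCGC or TTTGCCGC, either strand) were found in 12 of 67 member promoters (17.9%), against 2.79% of all promoters, and in 5 H2A, 4 H2B and 3 H4 promoters but no H3 or H1 promoter. Divergent pairs such as Hist1h2an with Hist1h2bp and Hist1h2ah with Hist1h2bk hold the same site, so the 12 are fewer separate promoters. The match at Hist1h4k lies after its start codon. The cAMP response element TGACGTCA was found in 4 members (5.97%), against 531 of all promoters (2.43%). These were Hist1h4a, Hist1h4h and the divergent pair Hist1h2ag and Hist1h2bj, which hold the same site in the stretch they share, so that the members with the word amount to 3 separate promoters. The 4 had a promoter peak, as did 165 of the 531. TGTTCT, the half-site of the glucocorticoid receptor, was found in 11 members (16.4%), against 16.9% of all promoters.

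Member promoters were less rich in G and C than others, with a median of 45.3% against 55.0% over all promoters, yet had a median ratio of observed to expected CpG of 0.750 against 0.524.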
